A study of Mus musculus with 138 samples.

Results

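Type I interferon-stimulated genes are the antiviral programme that a cell switches on when it senses interferon alpha or beta. The list examined here holds 35 such genes, chosen by name, and their levels were read in the lungs of 138 mice. In the capitals of the array's target names it holds the transcription factors IRF7, IRF9 and STAT2, the Isg15 system ISG15 and USP18, the oligoadenylate synthetases OAS1A, OAS1G, OAS2, OAS3, OASL1 and OASL2, and the IFIT family IFIT1, IFIT2 and IFIT3. It also holds the nucleic acid sensors DDX58, IFIH1, DHX58, ZBP1, IFI203 and IFI204, the restriction factors MX1, MX2, RSAD2, BST2, IFITM3, SAMD9L and TRIM30 (now Trim30a), the PARP system PARP9, PARP14 and DTX3L, and IFI27, IFI35, IFI44, IFI47 and XAF1. Of the 35, 34 had at least 1 probe on the array under a current name (58 probes), and Xaf1 was not matched to a probe. A probe was kept when its detection p-value was under 0.05 in at least 14 mice, which left 42 probes of 27 genes out of 24450 kept probes in all. Of those, 29 probes of 20 genes have a target name that is on the list, and the other probes and the other 7 genes were found under older names, such as G1P2 for Isg15 and ISGF3G for Irf9. Kept probes nearest to the limit were 1 of Oasl1, detected in 14 mice, and that of Oas3, in 17. Just outside lay Oas1a, detected in 12 mice at most, and Ifi203, in 10. Parp9 (5 mice), Ifi204 (6), Ifih1 (2), Ifi44 (1) and Ifit1 (0) were further below the limit.

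All mice belong to 1 group, with no untreated mice, so nothing here measures an effect of the allergen. Each came from a different partially inbred line of the incipient Collaborative Cross, a panel bred from the founder strains 129S1/SvImJ, A/J, C57BL/6J, CAST/Ei, NOD/LtJ, NZO/H1LtJ, PWK/Ph and WSB/Ei. Every mouse was sensitized intraperitoneally with 10 ug of Der p 1, a house dust mite allergen, then given 50 ug as a challenge on day 15, and lungs were taken 72 hours after it, on day 18. Age and sex are not given in the labels. RNA came from homogenized lung tissue, so fewer cells of a type and less RNA per cell cannot be told apart. Lines share founder alleles and each line gave 1 mouse, so the tests measure the spread over these mice and cannot tell a line from its mouse. Between 19075 and 21472 of 45281 probes were detected per array. The lung markers Sftpc, Scgb1a1 and Ager were detected in all 138 mice. The number after the letter m in the titles falls in a low range (under 100, 72 mice) and a high range (100 and over, 64 mice), whose meaning is not stated, and it was treated as a possible batch. For 2 further mice, title and strain label name different lines, and these were left out wherever the range was used.

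Interferon alpha and beta bind the receptor chains Ifnar1 and Ifnar2, and the kinases Jak1 and Tyk2 then phosphorylate signalling proteins, Stat2 among them. Stat2 and Irf9 are parts of a complex, ISGF3, that binds interferon-stimulated response elements near its target genes. Irf7 is a target of this complex and also a transcription factor for interferon genes, and so amplifies the response. In the lung the products of these genes limit respiratory viruses such as influenza.

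The response element is the sequence most often shared by such genes, so promoters of members from both ends of the range described below are printed here. They run from 250 bases before to 50 after the annotated start, come from RefSeq on GRCm38.p6, and read along the gene. Capitals mark each match to its core, GAAA, any 2 bases and GAAA, on either strand, and overlapping matches run together. Isg15, Oas1g and Irf7 varied together with the other members, Ifitm3 only in part, and Trim30a hardly at all.
Isg15 (chr4:156200769-156201068, minus strand): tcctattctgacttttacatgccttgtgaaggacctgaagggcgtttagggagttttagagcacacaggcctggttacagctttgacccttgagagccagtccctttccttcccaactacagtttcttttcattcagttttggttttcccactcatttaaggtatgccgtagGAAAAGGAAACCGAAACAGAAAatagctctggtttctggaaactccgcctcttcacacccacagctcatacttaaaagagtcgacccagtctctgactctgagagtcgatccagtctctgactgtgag
Oas1g (chr5:120887564-120887863, minus strand): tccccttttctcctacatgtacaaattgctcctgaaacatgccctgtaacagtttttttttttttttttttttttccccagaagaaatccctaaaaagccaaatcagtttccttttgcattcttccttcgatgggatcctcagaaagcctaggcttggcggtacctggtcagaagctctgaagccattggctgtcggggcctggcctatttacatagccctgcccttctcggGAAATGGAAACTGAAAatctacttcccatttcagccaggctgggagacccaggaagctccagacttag
Irf7 (chr7:141266375-141266674, minus strand): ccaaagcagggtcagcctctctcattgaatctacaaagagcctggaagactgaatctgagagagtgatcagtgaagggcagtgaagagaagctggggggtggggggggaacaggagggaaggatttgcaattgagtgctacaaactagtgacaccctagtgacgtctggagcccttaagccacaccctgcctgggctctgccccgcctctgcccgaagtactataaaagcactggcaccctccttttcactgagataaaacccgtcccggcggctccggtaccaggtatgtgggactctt
Ifitm3 (chr7:141010695-141010994, minus strand): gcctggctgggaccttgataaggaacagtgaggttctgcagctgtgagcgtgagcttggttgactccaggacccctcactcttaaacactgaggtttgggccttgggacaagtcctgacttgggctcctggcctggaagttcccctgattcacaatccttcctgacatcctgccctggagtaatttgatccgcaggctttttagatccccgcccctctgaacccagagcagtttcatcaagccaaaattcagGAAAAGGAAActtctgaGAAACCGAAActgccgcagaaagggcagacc
Trim30a (chr7:104465144-104465443, minus strand): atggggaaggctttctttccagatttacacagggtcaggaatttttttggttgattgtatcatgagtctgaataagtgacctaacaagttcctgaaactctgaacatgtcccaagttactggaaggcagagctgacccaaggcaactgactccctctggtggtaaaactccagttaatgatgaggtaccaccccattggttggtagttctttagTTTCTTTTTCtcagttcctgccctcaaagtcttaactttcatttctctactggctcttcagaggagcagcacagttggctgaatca
Isg15 holds 3 overlapping matches, Oas1g and Ifitm3 hold 2 each, Irf7 holds none in this window, and Trim30a holds 1 in each of its 2 annotated promoters. Of the 27 genes, 19 have an entry in the RefSeq table, and 10 of them (52.6%) hold the core. Of the 27025 genes counted, which do not cover every chromosome, 3.99% hold it. The core of the gamma-activated site, TTCNNNGAA on either strand, was found in 4 of 19 (21.1%), against 9.55% of all genes. The response element core was present in 8 of 16 genes that followed the shared pattern defined below, in 1 of 2 that lay between and in the 1 that left it. A match is a string of letters and shows no binding.

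The members varied widely between mice. The SD of the log2 level was over 0.5 in 29 of 42 member probes, against 15.8% of all kept probes, and over 1 in 4 of 42, against 2.19%. The median SD was 0.62 for member probes and 0.28 for all probes. The level of Mx2, a dynamin-like antiviral GTPase, ranged from 5.55 through a median of 6.86 to 11.5 in line OR5546. From its 5th to its 95th percentile this is a 22.8-fold range. Isg15, a ubiquitin-like modifier, ranged from 6.74 through 8.08 to 11.8 in OR5370, an 8.66-fold range between the same percentiles. Ifitm3, which blocks virus entry at the endosome, ranged only from 12.0 to 12.9 around a median of 12.5, a 1.53-fold range near the top of the scale. Deposited values carry 3 digits, so levels from 10 upward move in steps of 0.1. At the dim end, Oas3 (4.96 to 6.54, median 5.24) lay near background in most mice, where a fold is compressed.

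**Figure D1:**
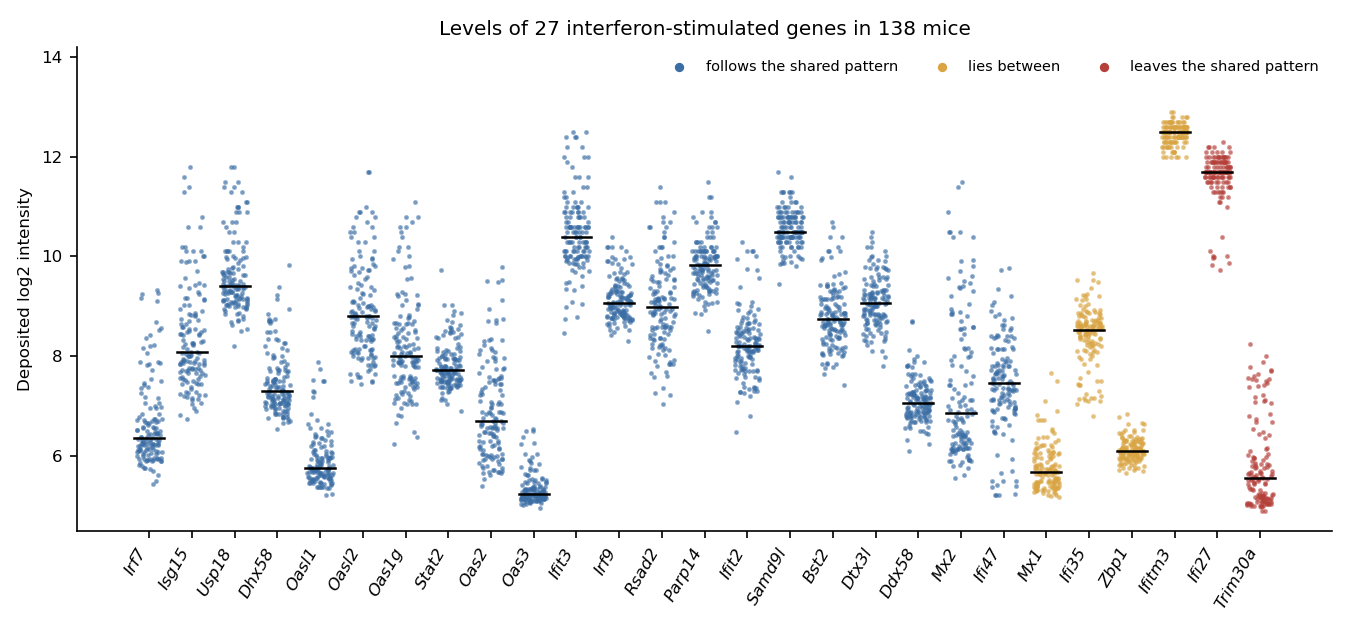
Deposited log2 intensity (y axis) of the brightest probe of each of 27 member genes in 138 mice; each point is a mouse and the black line the median. Genes are ordered by how closely they track the other members, and the last in the row, Trim30a, has most mice near 5.5 with a second set near 7.

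To describe what the members share, each level was turned into a z value (its distance from the gene's mean over the mice, in SDs) and each probe was set against the mean z value of the other member genes. A probe was said to follow the shared pattern at a Pearson r of 0.5 or more, to leave it under 0.3 and to lie between otherwise. These correlations over 138 arrays are descriptions, with no p, because the genes were listed for this programme and all values of a mouse come from 1 array. By this rule 33 probes followed, 6 lay between and 3 left. Over the 351 pairs of member genes the median r was 0.48, 47.6% of pairs were over 0.5 and 1 was below 0. Irf7 tracked the rest most closely (r = 0.94, rho = 0.88), beside Isg15 (r = 0.94), Usp18 (r = 0.93 for its brightest probe), and Oasl2 and Dhx58 (up to 0.92 and 0.91).

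The mean z value of a mouse ran from -0.94 through a median of -0.18 to 2.67, so the spread was long on the high side only. It was over 1 in 15 mice, over 2 in 3 mice and under -1 in 0. OR5370 stood highest, with the top level, ties included, in 8 of 27 genes and a place among the top 5 mice in 23. OR3401 (2.19) and OR4390 (2.09) came next. The top mouse differed between genes: Mx2 peaked in OR5546 and Irf7 in OR779.

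**Figure D2:**
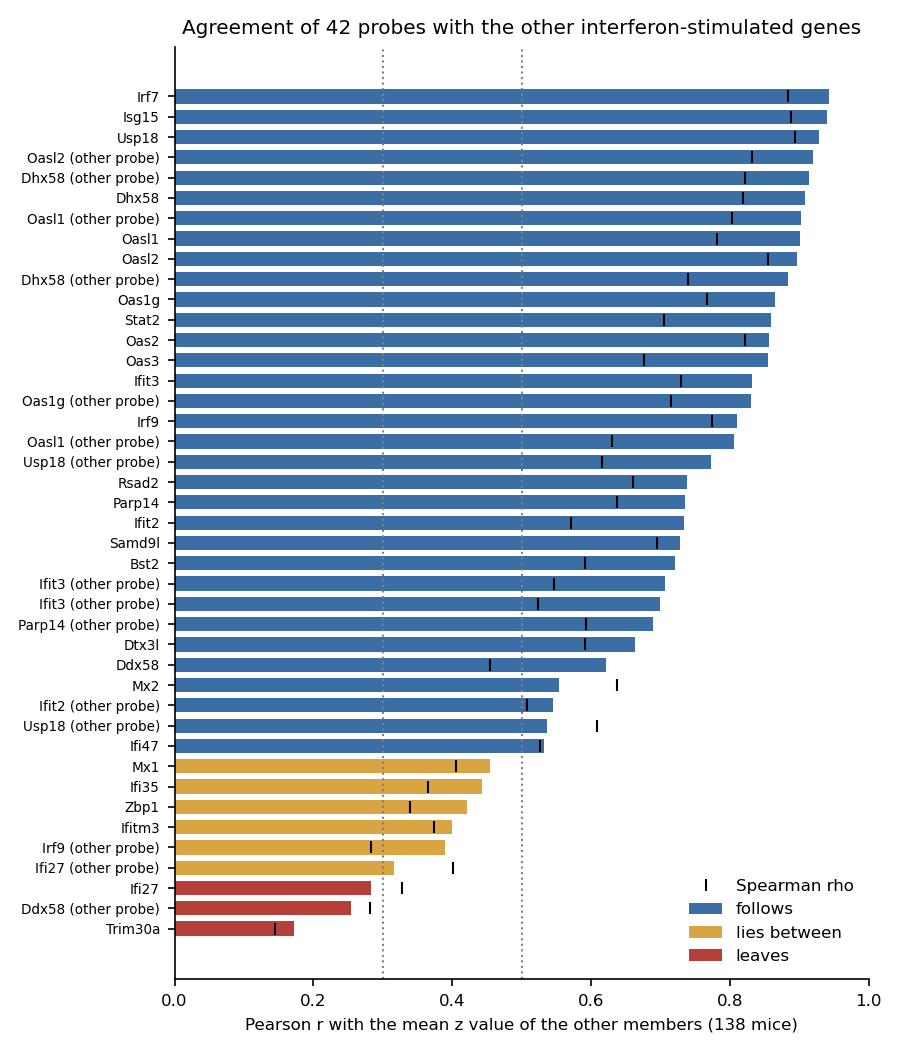
Pearson r (bars) and Spearman rho (black ticks) of 42 member probes with the mean z value of the other member genes over 138 mice; dotted lines mark 0.3 and 0.5. The bars fall from 0.94 for Irf7 to 0.17 for Trim30a.

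Which members rise with Irf7 was then tested in limma, with every kept probe fitted on the log2 level of Irf7 and Benjamini-Hochberg adjustment of p across all probes. The level of Irf7 ranged from 5.43 through a median of 6.37 to 9.32. The adjusted p passed 0.05 for 40 of 41 member probes, or 25 of 26 genes, and all of these rose. Irf7 is itself a member and tracked the others at r = 0.94, so these calls largely restate the shared pattern. They are no separate support for it, and the slopes serve to compare the members. Of all probes tested 6.73% passed in either direction and 3.12% rose. The median slope was 0.51 log2 per log2 of Irf7 over the member probes and -0.0021 over all probes. Within the low title number range 35 of 41 rose, and within the high range 34.

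Among the transcription factors, Stat2 (6.90 to 9.72, median 7.72) had a slope of 0.44 ± 0.026 (SE, n = 138, limma adjusted p = 1.04e-32). Irf9 gave 0.37 ± 0.028 on its brighter probe and 0.21 ± 0.055 on the dimmer one (limma adjusted p = 0.01). All 3 slopes lay below the median of the member probes.

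The Isg15 system held the steepest slope of the list. Isg15 rose by 1.12 ± 0.042 log2 per log2 of Irf7 (SE, n = 138, limma adjusted p = 2.87e-53). Usp18, which removes Isg15 from proteins and restrains the interferon receptor, gave 0.81, 0.67 and 0.62 on its 3 probes. On its brightest probe Usp18 ranged from 8.21 through 9.415 to 11.8, and on the middle one from 5.32 through 8.43 to 10.9. The middle probe correlated with the brightest at r = 0.62 (rho = 0.73) and with the dimmest at r = 0.53 (rho = 0.64). It read low in a few mice, such as OR739 at 5.84, where the brightest probe read 10.9. The 3 readings of this gene are thus not interchangeable in every mouse.

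The oligoadenylate synthetases make a messenger that activates RNase L, and all 9 kept probes of this family rose, with slopes from 0.25 to 1.03. Oas1g ranged from 6.25 through 7.995 to 11.1 and had a slope of 1.03 ± 0.045 (limma adjusted p = 4.12e-45). Oasl2 ranged from 7.44 through 8.80 to 11.7 (slope 0.97) and Oas2 from 5.39 through 6.705 to 9.78 (slope 0.96). Oas1g has close copies in the mouse genome, Oas1a among them, and a target name does not settle which copies a probe reads. The Oasl1 probe detected in 14 mice had the lowest slope of the family, 0.25 ± 0.015.

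The Ifit proteins bind viral RNA with foreign ends, and all 5 of their probes rose, with slopes from 0.41 to 0.72. Ifit3 ranged from 8.46 through 10.4 to 12.5, and its slope was 0.72 ± 0.047 (SE, n = 138, limma adjusted p = 1.92e-28). Ifit2 ranged from 6.48 through 8.20 to 10.3 on its brighter probe (slope 0.52).

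Among the RNA sensors, Dhx58 (also called LGP2) rose on its 3 probes with slopes of 0.68, 0.66 and 0.49, and these probes correlated at r from 0.94 to 0.99. Ddx58 (also called RIG-I) had a slope of 0.27 ± 0.034 on the probe listed by its own name, which ranged from 6.11 through 7.07 to 8.71. The other probe of Ddx58, listed under the clone name 6430573D20RIK, had a slope of 0.08 ± 0.025 (limma adjusted p = 0.0368), a call that was lost without the filter on dim probes (0.0609). Zbp1, a sensor of Z-form nucleic acids that can trigger cell death, had a narrow range (5.66 to 6.84, median 6.11) and a slope of 0.12 ± 0.020. Ifih1 (also called MDA5), the sensor of long RNA duplexes, was not kept.

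Of the 7 probes of genes listed as restriction factors, 6 rose. Mx2 had a slope of 0.93 ± 0.117 (SE, n = 138, limma adjusted p = 2.19e-10), and Rsad2 (viperin, 7.04 to 11.4, median 8.98) one of 0.74 ± 0.062. Bst2, which tethers budding virus to the cell, gave 0.51, and Samd9l, a restrictor of poxviruses, 0.29. Mx1, which is not functional in many laboratory mouse strains, ranged from 5.17 through 5.67 to 7.66 and had a slope of 0.21 ± 0.041. For Ifitm3 the slope was 0.09 ± 0.018 (limma adjusted p = 1.2e-04), and of the slopes that passed only that of the second Ddx58 probe was smaller. Trim30a, which dampens Toll-like receptor signalling in the mouse, was the member that did not pass, with a slope of 0.13 ± 0.086 (limma adjusted p = 0.356). The PARP family member Parp14 gave slopes of 0.43 and 0.40, and Dtx3l, the ubiquitin ligase that partners Parp9, gave 0.43.

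**Figure D3:**
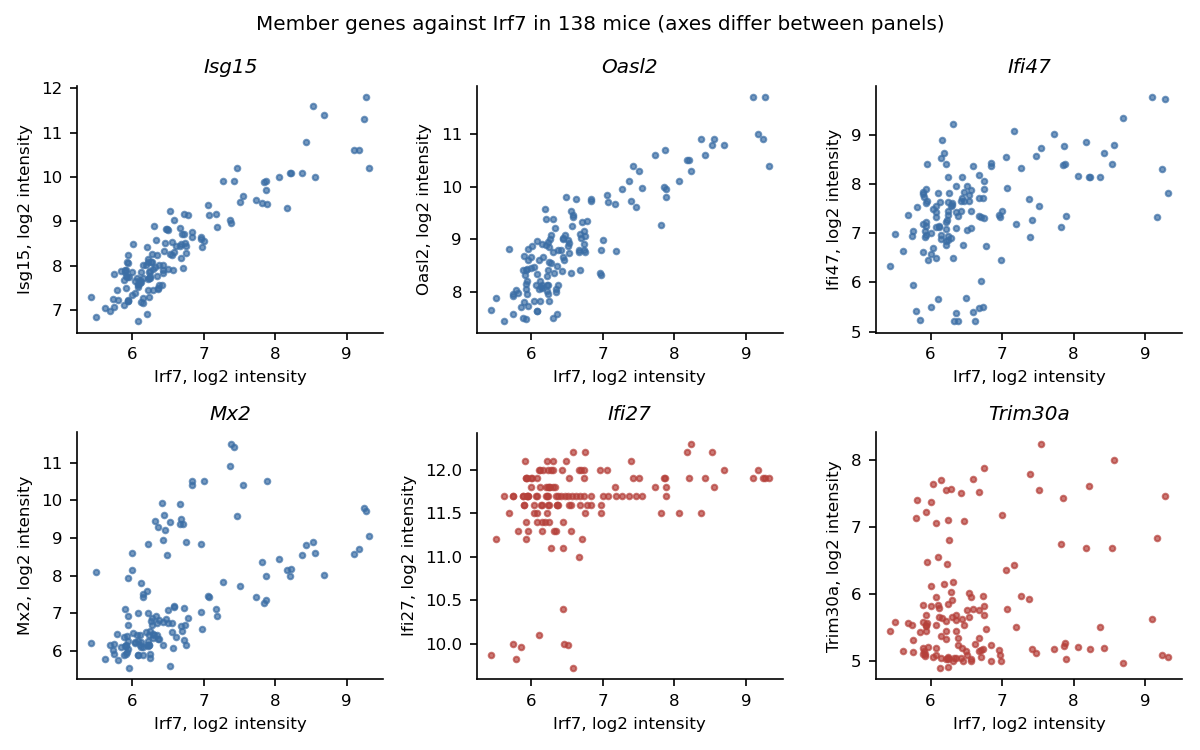
Log2 intensity of 6 member genes (y axes) against that of Irf7 (x axes), 1 point per mouse, 138 mice in each panel. Isg15 and Oasl2 climb with Irf7, a set of mice lies well above the others in Mx2 at the same Irf7 level, and Ifi27 and Trim30a fall into bands with slight slopes (0.18 and 0.13).

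Trim30a, which left the pattern, Ifi27, which left it on its brighter probe and lay between on the dimmer one, and Ifi35, which lay between, each had 2 separated levels in the deposited values. By Spearman's rho both Ifi27 probes lay between, and the dimmer Irf9 probe left the pattern (rho = 0.28). The Ddx58 probe listed by its own name then lay between (rho = 0.45) and no longer followed. Its other probe, which left the pattern by r, lay between within the high title number range. A probe was said to have 2 levels when a mixture of 2 normal distributions described it better than 1 (BIC lower by over 10) with means over 1 log2 and over 3 pooled SDs apart and at least 5% of mice in the smaller part. This held for 9 of 42 member probes, against 5.78% of all kept probes. Trim30a lay at a mean of 7.18 in 33 mice and of 5.39 in the others, and was detected in 58. Its r with the other members was 0.17 over all mice, 0.11 in the low title number range and 0.24 in the high one.

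Ifi27, a small mitochondrial protein, lay at 11.72 in 129 mice and at 9.98 in 9 on its brighter probe, a gap of 1.74 log2. The dimmer probe placed 11 mice low, and correlated with the brighter one at r = 0.92. On both, Ifi27 rose with Irf7 (slopes 0.18 ± 0.047 and 0.21 ± 0.053, limma adjusted p = 0.0108 and 0.00809). These calls were lost within each title number range. Ifi35, a leucine zipper protein, lay at 7.25 in 18 mice and 8.59 in 120, and had a slope of 0.27 ± 0.052.

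Members that followed the pattern closely could have 2 levels too. Both Oas1g probes, the brightest and the dimmest Usp18 probe and the brighter Ifit2 probe had a smaller high part, of 15 and 21, 25 and 12, and 9 mice. Their r with the other members ranged from 0.73 to 0.93. Among the member probes that met the rule, the smaller part thus lay on the high side in these 5 and Trim30a. It lay on the low side for Ifi27 and Ifi35. Ifi47, with 12 mice in a low part, narrowly missed the rule (BIC lower by 9.83). In background-corrected values the count of member probes with 2 levels was 7. Trim30a (gap of 1.71 pooled SDs), the brighter Oas1g and Ifit2 probes and the dimmest Usp18 probe no longer met the rule there, and Ifi47 and the other Ifit2 probe did.

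For each member probe the 3 other named genes with the highest absolute r over the 138 mice were listed, and RefSeq gene positions were used to see whether they share its chromosome. For the 3 probes that left the pattern, 9 of 9 like genes lay on the member's own chromosome and 0 were members. For the 6 probes between, 8 of 18 (44.4%) lay on the same chromosome and 5 were members. For the 33 that followed, the counts were 14 of 99 (14.1%) and 74. On average 5.51% of all named kept probes share a member's chromosome. The classes were formed from r with other members, so the small number of members among the like genes of leaving probes follows from the rule. Within the title number ranges the count for leaving probes was 8 of 9 in the low range and 6 of 9 in the high range.

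The genes most like Trim30a were Pak1, a kinase of the cytoskeleton (r = 0.74, rho = 0.50), the mitotic kinase Plk1 (r = 0.55), and Arap1, a regulator of small GTPases (r = 0.53). They lie far from it on the chromosome, with 191, 255 and 138 protein-coding genes between. For the brighter Ifi27 probe they were Trip11, a Golgi protein (r = -0.70, rho = -0.28), Ifi27l2a, an interferon-stimulated relative that is its direct neighbour (r = 0.57), and Atxn3, a deubiquitinase (r = 0.56). Trip11 and Atxn3 lie 23 and 22 protein-coding genes away. For Trip11 and Atxn3 (rho = 0.27) r and rho differ widely. In the plot of members against like genes the few mice with low Ifi27 lie apart.

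For the Ddx58 probe that left the pattern, the most like genes were the kinase Tesk1 (r = -0.64) and Smim8 (r = 0.52), with 65 and 8 protein-coding genes between. This probe correlated with the other Ddx58 probe at r = 0.15 only, the lowest of 19 pairs of probes of 1 gene, which otherwise ran from 0.53 to 0.99. The Ddx58 probe listed by its own name was most like the members Ifit3 (r = 0.79) and Usp18 (r = 0.78) and the interferon-stimulated gene Phf11d (r = 0.84). The probe that left the pattern was dim (5.28 to 6.73, median 5.605) and was detected in 51 of 138 mice, the other in all 138. What part this dimness had in its low r was not tested, nor which of the probes reads the gene better.

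Ifitm3 and Mx2 showed the same feature by Pearson r, and were looked at after their values were seen. Ifitm3 was most like Phrf1 (r = 0.74), Tollip, an adaptor of interleukin and Toll-like receptors (r = 0.67), and the mitochondrial deacetylase Sirt3 (r = 0.64), which lie 12, 37 and 7 protein-coding genes away. Mx2 was most like Psmg1, a proteasome assembly chaperone (r = -0.67, rho = -0.45), and Pigp (r = -0.61, rho = -0.38), both on its chromosome. Usp18 came next by r (0.59), but by absolute rho (0.66) it stood above both. The middle Usp18 probe was most like Tpi1 (r = 0.65, rho = 0.29) and Bcl2l13 (r = 0.65, rho = 0.35), with 55 and 4 protein-coding genes between. The brightest Usp18 probe was most like Irf7 (r = 0.93, rho = 0.86). Whether a line's own bases under a probe alter its reading was not tested, since probe sequences were not used here.

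**Figure D4:**
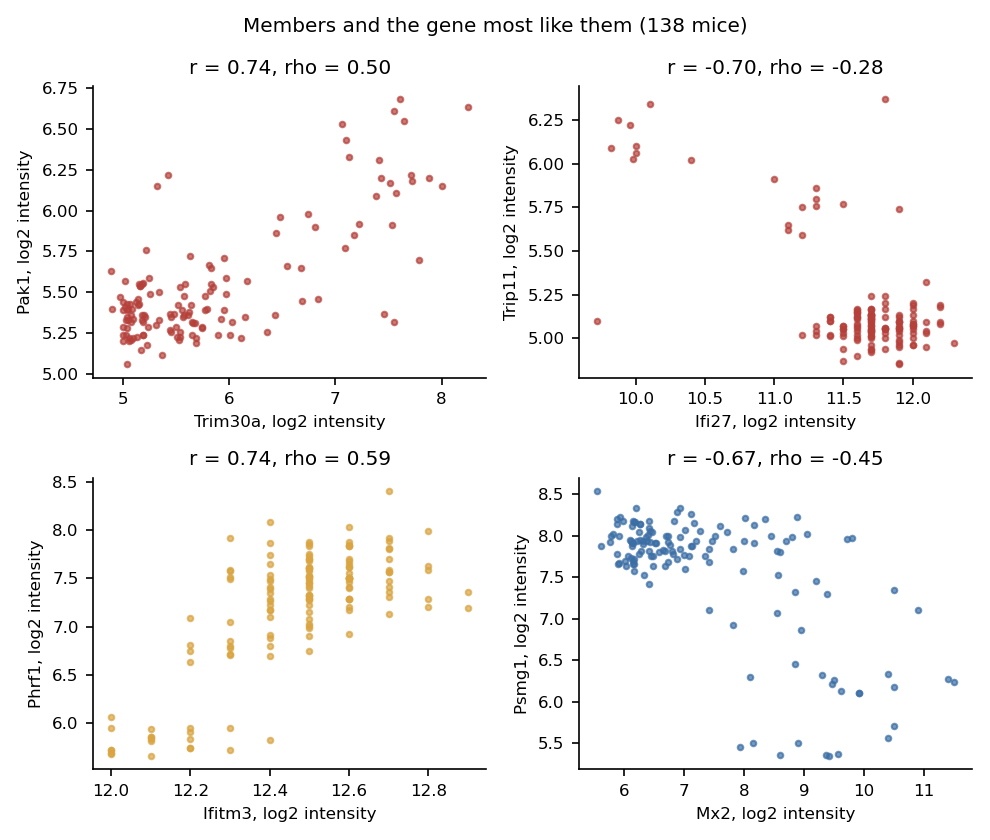
Log2 intensity of 4 members (x axes) against the gene most like each of them (y axes), 1 point per mouse, with Pearson r and Spearman rho over 138 mice above each panel. Trip11 is high in most of the few mice with low Ifi27, and Psmg1 is low in many mice with high Mx2.

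The pathway above and around the members was read from lists of other genes. Of 18 ligand genes, 4 were kept (Ifna1, Ifnab, Ifne and Ifng), and 0 of 4 passed with Irf7 in limma. Ifng (slope 0.05, limma adjusted p = 0.0714) was the 1 of them with an unadjusted p under 0.05. Ifnb1 and most of the alpha genes were detected in at most 1 mouse. Of 16 kept receptor and signalling genes 5 rose and 2 fell. Among them Irf5, Ifngr2, Irf1 and Socs1 rose, with slopes of 0.20 or less, and Ifngr1 (-0.09) and Pias1 (-0.07) fell. Of 9 genes of nucleic acid sensing, the adaptors Myd88 (slope 0.10) and Traf3 (0.08) rose.

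Of 40 other interferon-stimulated genes 34 rose and 0 fell. The steepest was Ifi27l2a (5.07 to 11.9, median 9.465), with a slope of 1.19 ± 0.134, next to Ifi27, whose slope was 0.18. Cmpk2, a mitochondrial nucleotide kinase, gave 0.66, Phf11 0.53, Rnf213 0.52, Eif2ak2 (the RNA-activated kinase PKR) 0.51 and Ifi205 0.50. These lists were drawn up with earlier results of these data known, and their counts stand beside the 3.12% of all probes that rose.

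Interferon gamma acts through its own receptor and shares many targets with the type I arm. On the chemokine Cxcl9, a target of interferon gamma that ranged from 5.58 through 7.29 to 11.6, 34 of 42 member probes rose (22 of 27 genes), against 13.7% of all probes called and 7.8% that rose. Isg15 (slope 0.45 ± 0.069), Ifi47 (0.42 ± 0.061) and Oas1g (0.40 ± 0.067) were the steepest. Both Ifi27 probes, Ifitm3, Trim30a, Zbp1, Mx2, and a probe each of Ddx58 and Usp18 did not pass (limma adjusted p from 0.0526 to 0.546). In the high title number range 16 of 42 rose, beside 939 of all 24449 probes. With Irf7 also in the model, the slope on Cxcl9 passed for 6 of 41 member probes (14.6%), and all 6 rose. Of all probes 7.84% rose, and 14.1% were called in either direction.

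The 6 that passed were probes of Ifi47, Stat2, Isg15, Dtx3l, Irf9 and Oas1g. Ifi47, a GTPase induced by interferon gamma, had a slope of 0.31 ± 0.063 on Cxcl9 beside that on Irf7 (limma adjusted p = 1.33e-04). Stat2 gave 0.13 ± 0.019 (limma adjusted p = 1.38e-07) and Isg15 0.13 ± 0.033. Dtx3l gave 0.09, the brighter Irf9 probe 0.08 and the dimmer Oas1g probe 0.12. Ifi47 ranged from 5.21 through 7.455 to 9.76 and was most like Gbp5 (r = 0.59), a guanylate-binding protein. In the low title number range 3 member probes passed, beside 911 of all 24448, and in the high range 2, beside 821. Of 9 tested genes of the interferon gamma axis 8 rose with Irf7, led by Cxcl10 (0.69 ± 0.068), Igtp (0.59) and Cxcl9 (0.54), and Ciita did not pass (0.12, limma adjusted p = 0.135). With Irf7 in the model 7 of 8 rose with Cxcl9.

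**Figure D5:**
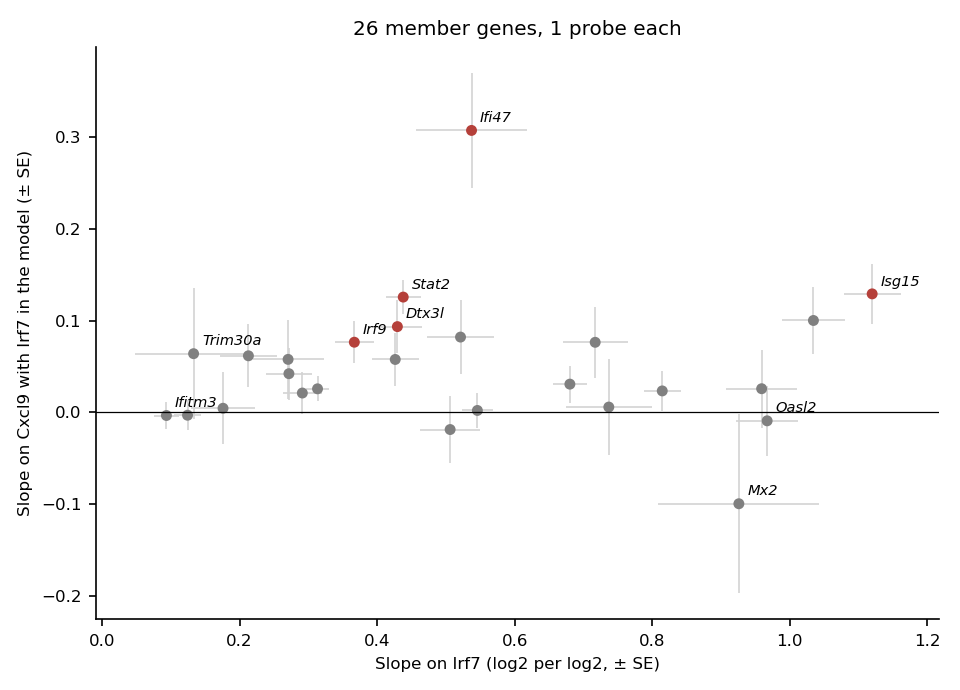
Slope of each of 26 member genes on Irf7 (x axis) and on Cxcl9 with Irf7 in the same model (y axis), in log2 per log2, with SE as bars; red points have a limma adjusted p under 0.05 for the Cxcl9 slope. Ifi47 lies highest at 0.31, and most genes lie near 0.

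The members were also set against the allergic response and neutrophils. On Clca1, a goblet cell product that rises in allergic airways, 6 of 42 member probes rose, against 9.5% of all probes called and 4.25% that rose. These were both Oas1g probes, the dimmer Parp14 probe, the brightest Usp18 probe, Dtx3l and Stat2. The other probes of Parp14 and Usp18 did not pass. The steepest was Oas1g (0.15 ± 0.038 log2 per log2 of Clca1, limma adjusted p = 0.0056). The count was 0 within the low and the high title number range in limma, where 269 and 283 of all 24448 probes were called. At an unadjusted p under 0.05 in limma it was 8 and 7 member probes, beside 4094 and 4268 of all probes. Without the mice of OR1234 and OR167, the farthest from the median of Clca1, 3 member probes rose, and 1319 of all probes were called. On Retnlg, a neutrophil product, 17 of 42 member probes of 12 genes rose, against 13.3% of all probes called and 7.17% that rose. Among them were Oas1g (0.35 ± 0.075), Isg15 (0.32 ± 0.081) and Irf7 (0.22 ± 0.067). Of cell type markers, 5 of 5 of goblet cells, 2 of 2 of eosinophils and 5 of 8 of neutrophils rose with Retnlg. A slope on Retnlg thus does not stand for neutrophils alone. In limma the count of member probes was 0 in the low title number range, where 257 of all 24449 probes were called. It was 10 in the high range, where 2473 were called. At an unadjusted p under 0.05 in limma the low range gave 9 member probes and 2258 of all probes.

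Markers of cell types that could carry these genes moved with Irf7 in part. Of plasmacytoid dendritic cells, the main producers of interferon alpha, 2 of 5 kept markers rose. These were Siglech (5.22 to 8.67, median 6.65), with a slope of 0.35 ± 0.061 (limma adjusted p = 1.38e-05), and Pacsin1 (0.14). For NK and cytotoxic cells 2 of 3 rose (Nkg7 0.20, Prf1 0.19), for neutrophils 2 of 9 (Retnlg 0.33, Camp 0.20), for eosinophils 2 of 2 (Prg2 0.38, Cebpe 0.17), for goblet cells 2 of 5 (Muc5ac 0.54, Spdef 0.17), for monocytes 1 of 5 (Fcgr4 0.23) and for T cells 1 of 7 (Cd4 0.10). Of type 2 alveolar cells 1 of 6 fell (Sftpb, -0.10). In B cells (6), alveolar macrophages (4), endothelium (6), type 1 alveolar (5), club (3), ciliated (4) and cardiac muscle cells (4) 0 passed in limma, and 2 of these 32 markers had an unadjusted p under 0.05. The part of cell numbers in the members' levels was not tested.

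Between the title number ranges 0 of 42 member probes differed, and 0 of 24450 in all (0.0% called). At an unadjusted p under 0.05 in limma the counts were 0 of 42 and 944 of 24450. The slope on Irf7 differed between the ranges for 0 of 41 member probes (0.0% of all probes called). At an unadjusted p under 0.05 in limma the counts were 1 member probe and 1407 probes. In size the differences between the ranges were at most 0.24 log2 over the member probes.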

How the data were processed

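Lung RNA of 138 mice was read on Illumina WG6v2 arrays, 1 per mouse. Per the file headers, the deposited scanner table gives an intensity and a detection p-value per probe. The authors also deposited log2 values. Per the submitters' processing notes these came from GenomeStudio and R 2.9.2 with RMA, quantile normalization and log2. They differed from log2 quantile-normalized intensities computed here by a median of 0.0091, and they are the values used here.

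Target names were updated through RefSeq (GRCm38.p6): 22864 probes matched a symbol, 11917 a synonym and 10500 kept their name. A gene's probe with the highest mean stood for it where 1 was needed. No 2 arrays were identical. Tests were linear models in limma 3.58.1 (R 4.3.3; lmFit, eBayes), adjusted over all kept probes, threshold 0.05. Other steps used Python 3.11.15. The Irf7 fit was tested on simulated independent values of 24450 probes. It recovered 8% of 100 planted slopes of 0.2 SD and 78% of 100 of 0.4 SD, with 2 false calls. Weak slopes could thus be missed.

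Members and lists were chosen with earlier results of these data known. All members may be named, and up to 6 list genes by slope among those that passed. For members that leave the pattern or have 2 levels, the 3 most like genes are named. The like genes of Mx2, Ifitm3, Irf9, Zbp1 and Ifi47, the kept ligands and Ciita were named after their values were seen. Members not kept and probe sequences were not used here. RefSeq gene positions served only for promoters, shared chromosomes and the genes between. Results for a few other genes are not reported here.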

Additional observations from a re-analysis of the deposited data

How the results depend on the processing

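No paired analysis was possible because the labels give 1 group with 1 mouse per line. Of the values that answer a comparison, those that moved by over 1.5 times did so under 5 kinds of setting, and 0 changed direction. Among probes detected in all mice, 24 of 24 member probes rose with Irf7, 21 of 24 with Cxcl9 and 9 of 24 with Retnlg. Of the 24, 1 left the pattern. The Trim30a probe (detected in 58 mice) and the dim Ddx58 probe (51 mice), which left it in the main values, are not in this set. Within the low title number range, the counts were 3 for Cxcl9 given Irf7, 0 for Clca1 and 0 for Retnlg. Within the high range they were 16 for Cxcl9, 2 for Cxcl9 given Irf7, 0 for Clca1 and 10 for Retnlg. These fits hold fewer mice. For Clca1, 3 member probes rose without the 2 farthest mice and 10 with Clca1 as normal scores, and the cause was not tested. With Irf7, the count over all probes was 1645 in the main values, 241 and 422 in the low and high range, 605 without the 2 farthest mice and 3040 with normal scores. For Cxcl9 it was 3344, against 931, 1423 and 1841 in the first 3 of these settings. Background correction, the range or array quality as covariates, and the removal of lines OR5513 and OR1427 left 40 of 41 member probes rising with Irf7. Alternatives for the like genes were chosen after seeing the data. They put 6 to 9 of 9 like genes of the leaving probes on the same chromosome, and 28 of 30 when 10 genes per probe were taken. Dim probes such as Oas3 limit the precision, as does the number of arrays.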

Other observations

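The dimmer Irf9 probe stood apart from the brighter one (r = 0.67). It was most like Rnf114, a ubiquitin ligase (r = 0.85, rho = 0.85), Psmb8, a subunit of the immunoproteasome (r = 0.82), and the transcription factor Irf1 (r = 0.81), and 0 of these 3 genes are members or share its chromosome. The brighter Irf9 probe was most like Phf11d (r = 0.82), Oasl2 (r = 0.81) and Isg15 (r = 0.80). Psmb8 itself had a slope of 0.13 on Irf7 (limma adjusted p = 0.111).

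Zbp1 was most like Rnf31, a ubiquitin ligase of the linear chain complex (r = 0.58), the tight junction gene Cldn9 (r = 0.57) and Bzw1 (r = 0.56), and 0 of these are members. Its levels lay close to background. Among all pairs of member genes the single r below 0 was that of Ifi35 and Trim30a (r = -0.0035).

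On Cxcl9 with Irf7 in the model, 7 of 7 T cell markers rose, where 14.1% of all probes were called and 7.84% rose. On Cxcl9 alone the T cell slopes ran from 0.09 for Cd4 to 0.25 for Cd3g.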
